A study of Mus musculus with 8 samples.

Results

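The genes described here encode vimentin and proteins of contractile actin filaments: Vim, Acta2, Tagln, Tagln2, Cald1, Tpm1, Tpm2, Cnn1, Cnn2 and Cnn3. They were taken as the probe sets that the platform annotation assigns to these 10 symbols, which gave 31 of the 45037 probe sets other than controls, or 10 of 18193 genes. Each gene was read from the probe set with the highest mean over all arrays, and 8 of the 10 genes were bright enough to be tested among 13196 genes. Tagln and Cnn1 were not, and their values are given without a test. All 8 tested genes lay above the detection floor on all 8 arrays, the floor being the 40th percentile of each array, 5.21 to 5.28 log2 units.

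The study measured total RNA of 2 mouse lines on 8 single-colour Affymetrix arrays. CT26, labelled as epithelial cells of a colon tumour, and RAW, labelled as macrophages, were kept in co-culture or alone, with 2 arrays in each of 4 groups, from experiments 1 and 2. In CT26 co-culture and RAW co-culture a porous insert holding RAW cells stood in a well of CT26 cells, so that soluble factors passed between the lines while the cells stayed apart. CT26 alone and RAW alone were grown without the other line, and no drug, vector or mutation is named for any group. Both are established cell lines, so no group holds separate animals. CT26 cells were taken off the plate with trypsin and RAW cells were broken open directly on the insert, so line and harvest cannot be told apart in any comparison of CT26 with RAW.

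Vimentin forms intermediate filaments in mesenchymal cells and leukocytes. Acta2 encodes smooth muscle actin. The tropomyosins Tpm1 and Tpm2, caldesmon (Cald1) and the calponins (Cnn1, Cnn2, Cnn3) bind along actin filaments and regulate their contact with myosin. The transgelins (Tagln, Tagln2) also bind actin filaments. Many of these genes are known targets of serum response factor (SRF), which binds the CArG box, and of TEAD factors, which bind the MCAT element. Acta2, Tagln and Cnn1 are classical markers of smooth muscle and myofibroblasts, whereas Tagln2, Cnn2 and Cnn3 are expressed more widely.

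The 8 arrays had medians of 5.88 to 5.94 log2 units, and after sorting their values were within 0.158 of each other at every rank. The deposited values behave like quantile-normalized ones and so carry no change in total RNA per cell. Fewer cells of a kind and less RNA per cell cannot be told apart in such bulk samples. All 12 macrophage markers were lower in CT26 alone than in RAW alone, and their mean level was 5.93 to 5.94 in CT26 alone and 12.36 to 12.59 in RAW alone (log2, range over arrays). Csf1r, the receptor of colony-stimulating factor 1, stood at 5.59 ± 0.34 in CT26 alone but 14.66 ± 0.02 in RAW alone, and Lyz2, lysozyme, at 6.16 ± 0.08 and 15.26 ± 0.07 in the same groups (SD, n = 2). Of 11 mesenchymal markers 9 were tested and all 9 were higher in CT26 alone than in RAW alone. Col1a2, a collagen chain, stood at 13.55 ± 0.05 in CT26 alone but 6.42 ± 0.13 in RAW alone. In RAW alone 5 of the 11 lay under the floor on both arrays, as did 2 of the 12 macrophage markers in CT26 alone. A marker that dim in 1 line is tested mainly through the other, so its direction was largely set by the filter. Of all tested genes 17.6% were higher and 17% lower in CT26 alone at an adjusted p below 0.05. The epithelial label of CT26 was not borne out by every marker. Of 12 epithelial markers 8 were tested and 3 were higher in CT26, Krt20 and Krt18 among them. The mean level of the 12 was 6.95 to 6.97 in CT26 alone and 5.30 to 5.32 in RAW alone. Under the floor on both arrays lay 3 of them in CT26 alone and 6 in RAW alone. Cdh1, Krt7, Cldn7 and Ocln were too dim to test, and Epcam stood at 6.87 ± 0.07 in CT26 alone with 6.88 ± 0.00 in RAW alone. Of 10 muscle markers 5 were tested and 1, Smtn, was higher in CT26. Smooth muscle myosin, Myh11, lay under the floor at 4.58 ± 0.07 in CT26 alone with 4.62 ± 0.19 in RAW alone. Of 5 endothelial markers 1 was tested and 0 were called.

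Promoter sequences are shown for the calponin genes, of which Cnn2 and Cnn3 set the lines apart and Cnn1 was dim in every group, and for Acta2 and Tpm1, which hold CArG-like matches and MCAT elements. They are the 250 bases before the RefSeq start of the gene, from assembly GRCm38.p6, written 5′ to 3′ on the strand of the gene, with matches in capitals. The CArG box was searched as CC, then 6 bases that are each A or T, then GG, with up to 1 mismatch, and the MCAT element as CATTCC or, on the other strand, GGAATG.
Cnn2, chr10:79988350-79988599, plus strand: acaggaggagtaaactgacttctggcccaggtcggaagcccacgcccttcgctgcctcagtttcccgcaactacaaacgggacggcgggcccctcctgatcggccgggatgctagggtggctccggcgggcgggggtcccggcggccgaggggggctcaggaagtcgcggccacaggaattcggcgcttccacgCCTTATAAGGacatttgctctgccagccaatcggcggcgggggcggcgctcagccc
Cnn3, chr3:121426291-121426540, plus strand: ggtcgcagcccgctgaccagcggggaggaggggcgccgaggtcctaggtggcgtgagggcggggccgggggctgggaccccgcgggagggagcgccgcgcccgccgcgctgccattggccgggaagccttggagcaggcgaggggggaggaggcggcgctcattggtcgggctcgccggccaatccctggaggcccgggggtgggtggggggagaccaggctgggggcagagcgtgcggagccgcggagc
Cnn1, chr9:22099003-22099252, plus strand: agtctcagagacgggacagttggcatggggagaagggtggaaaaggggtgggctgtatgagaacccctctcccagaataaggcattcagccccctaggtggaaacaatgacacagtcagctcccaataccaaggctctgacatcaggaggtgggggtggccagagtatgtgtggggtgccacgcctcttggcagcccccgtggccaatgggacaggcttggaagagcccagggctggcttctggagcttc
Acta2, chr19:34255374-34255623, minus strand: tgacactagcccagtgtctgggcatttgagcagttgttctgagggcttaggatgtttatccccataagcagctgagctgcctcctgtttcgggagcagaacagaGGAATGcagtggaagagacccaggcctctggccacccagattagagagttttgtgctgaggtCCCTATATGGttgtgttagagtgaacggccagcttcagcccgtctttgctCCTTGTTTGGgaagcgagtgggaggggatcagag
Tpm1, chr9:67049214-67049463, minus strand: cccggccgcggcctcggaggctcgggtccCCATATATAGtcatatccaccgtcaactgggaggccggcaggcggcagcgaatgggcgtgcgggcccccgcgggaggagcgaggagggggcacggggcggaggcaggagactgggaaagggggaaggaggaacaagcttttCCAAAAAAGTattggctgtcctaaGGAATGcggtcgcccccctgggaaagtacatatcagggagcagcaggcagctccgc

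The table of promoters matched 9 of the 10 genes, all but Tagln, with 10 promoters, since Cald1 had more than 1 start. An exact CArG box, CCTTATAAGG, stood 56 to 47 bases before the start of Cnn2, the only exact match in these promoters, against 1.47% of 32851 promoters of the same length. Matches with up to 1 mismatch were found for 4 of the 9 genes, against 18.6% of all promoters: Cnn2, Acta2, Tpm1 and Cald1. In Acta2 they were CCCTATATGG, 84 to 75 bases before the start, and CCTTGTTTGG, 34 to 25 bases before it. In Tpm1 they were CCATATATAG, 221 to 212 bases before the start, and CCAAAAAAGT, 80 to 71 bases before it. The MCAT element was found for 4 of the 9 genes, Acta2, Tpm1, Cald1 and Tagln2, against 12.6% of all promoters. The promoters of Cnn3, Cnn1, Vim and Tpm2 held none of these letters within the window. No CArG and MCAT match overlapped in the printed promoters. These matches describe letters within the window and do not show that a factor binds there.

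The first question was how the levels of these genes differ between CT26 and RAW. Caldesmon, both calponins that were detected and the tropomyosin gene Tpm2 were far higher in CT26, by 10.2-fold to 81.4-fold in cells grown alone, and Tpm1 was 2.03-fold higher. The 81.4-fold is that of Cnn3, which lay close to the floor in RAW, so its size is not well measured. Acta2 was the only tested gene of the set called lower in CT26. Of the 8 tested genes, 5 were called higher and 1 lower, where called means an adjusted p below 0.05 in limma over all 13196 genes. The background is high, because 34.6% of all tested genes were called in this comparison, 17.6% higher and 17% lower in CT26. The median difference was 2.19 log2 units over the 8 genes and 0.047 over all tested genes. The genes were chosen with earlier results of these data known. Counts and medians of the set, here and below, therefore describe it and do not test it against the background.

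**Figure D1:**
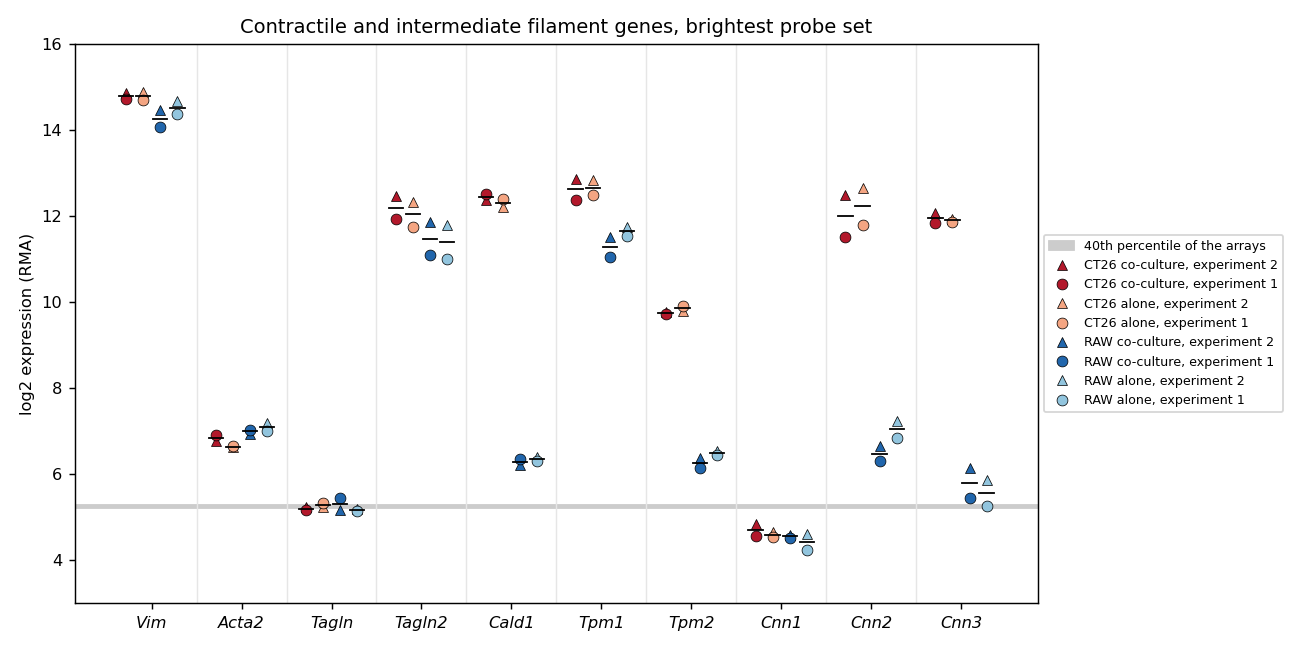
Log2 expression of the 10 genes in every array, on the probe set with the highest mean over the arrays. Triangles are experiment 2, circles experiment 1, short bars the group means of 2 arrays, and the grey band the 40th percentile of the arrays. Cald1, Tpm2, Cnn2 and Cnn3 separate CT26 from RAW, Vim is near the top of the scale in all groups, Cnn1 lies under the grey band, and Tagln lies around it, with 6 of 8 arrays under their floor.

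Cald1 encodes caldesmon, which binds actin, myosin, tropomyosin and calmodulin. It read 12.21 and 12.40 in CT26 alone in experiments 2 and 1, against 6.39 and 6.30 in RAW alone. The co-cultured cells gave 12.38 and 12.51 in CT26 and 6.20 and 6.34 in RAW. CT26 arrays were high and RAW arrays low, with no overlap. The difference was 5.96 ± 0.13 log2 units (SE) in cells grown alone, a 62.3-fold excess in CT26 (adjusted p = 3.01e-07), and 6.18 ± 0.13 in co-culture (adjusted p = 2.96e-07).

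The tropomyosins form the coiled coils that lie along the actin filament. Tpm2 had 9.78 and 9.91 for CT26 alone, against 6.53 and 6.45 for RAW alone, and 9.76 and 9.73 in CT26 co-culture against 6.37 and 6.13 in RAW co-culture. The lines did not overlap, and CT26 alone exceeded RAW alone by 3.36 ± 0.13 log2 units, or 10.2-fold (adjusted p = 2.44e-06). In co-culture the excess was 3.50 ± 0.13 (adjusted p = 2.03e-06). Tpm1 was bright in both lines, at 12.84 and 12.48 for CT26 alone, against 11.75 and 11.53 for RAW alone. Its co-culture values were 12.86 and 12.37 in CT26 and 11.51 and 11.05 in RAW, so every CT26 array was above every RAW array. The excess of CT26 was 1.02 ± 0.24 log2 units in cells grown alone (adjusted p = 0.015) and 1.33 ± 0.24 in co-culture, or 2.52-fold (adjusted p = 0.00468). Without CT26 alone of experiment 2 the difference in cells grown alone was 0.84 (adjusted p = 0.0963), and without RAW alone of experiment 1 it was 0.91 (adjusted p = 0.0794), neither of which was called.

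Calponins bind actin and, in smooth muscle, inhibit the ATPase activity of actomyosin. Cnn2, a calponin of non-muscle cells, read 12.66 and 11.79 in CT26 alone and 7.23 and 6.84 in RAW alone, in experiments 2 and 1. In co-culture it read 12.48 and 11.51 in CT26 and 6.65 and 6.29 in RAW. The lines were separated by more than the span between experiments, with a difference of 5.19 ± 0.39 log2 units in cells grown alone, or 36.6-fold (adjusted p = 6.9e-05). Cnn3, the acidic calponin, gave 11.94 and 11.86 for CT26 alone, against 5.85 and 5.25 for RAW alone, close to the floor. In co-culture it gave 12.07 and 11.84 in CT26 and 6.13 and 5.43 in RAW. CT26 alone exceeded RAW alone by 6.35 ± 0.28 log2 units, or 81.4-fold (adjusted p = 4.66e-06). The floors of the RAW alone arrays were 5.23 and 5.22 in experiments 2 and 1, so the size of this difference is not well measured. Cnn1, the smooth muscle calponin, lay under the floor on all arrays, between 4.22 and 4.84 log2 units, so no order of its groups can be read.

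Acta2, smooth muscle actin, differed little between the lines. It read 6.62 and 6.64 for CT26 alone, against 7.18 and 6.99 for RAW alone, with no overlap, and 6.76 and 6.90 in CT26 co-culture, against 6.94 and 7.03 in RAW co-culture. CT26 alone was at 0.731-fold the RAW level, a difference of -0.45 ± 0.12 log2 units (adjusted p = 0.0293), while the co-culture difference of -0.16 ± 0.12 did not pass (adjusted p = 0.396). The call in cells grown alone was lost on leaving out CT26 alone of experiment 1 (adjusted p = 0.113), CT26 alone of experiment 2 (0.13) or RAW alone of experiment 2 (0.139). Tagln, the smooth muscle transgelin, ranged from 5.13 to 5.43 over the 8 arrays, at the floor, with means between 5.16 and 5.30 in the groups. It had both CT26 co-culture arrays, 1 CT26 alone array, 1 RAW co-culture array and both RAW alone arrays under the floor.

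Vim, vimentin, was at the top of the scale in both lines, with 14.88 and 14.70 for CT26 alone, against 14.67 and 14.37 for RAW alone. The co-cultured cells had 14.86 and 14.73 in CT26 and 14.46 and 14.06 in RAW. The difference between the lines was 0.27 ± 0.18 log2 units in cells grown alone (adjusted p = 0.305) and 0.53 ± 0.18 in co-culture (adjusted p = 0.059). With the experiment as a block in each line, these differences passed at adjusted p = 0.0292 and 0.00127, whereas with a block shared by the lines the first did not (adjusted p = 0.0627) and the second did (adjusted p = 0.00399). Tagln2, the transgelin of leukocytes and other non-muscle cells, had 12.32 and 11.75 for CT26 alone, against 11.79 and 10.99 for RAW alone, and 12.46 and 11.92 in CT26 co-culture, against 11.85 and 11.09 in RAW co-culture. Its lines overlapped, because experiment 2 was higher than experiment 1 in every group, although within each experiment CT26 was the higher. The difference in cells grown alone was 0.65 ± 0.38 without a block (adjusted p = 0.245), and the fit with a block per line called it (adjusted p = 0.000403). In co-culture it was 0.72 ± 0.38 (adjusted p = 0.199, or 0.000232 blocked per line).

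Between co-cultured CT26 and co-cultured RAW cells 5 of the 8 genes were called, all higher in CT26, against a background of 34.8% of tested genes, 17% higher and 17.7% lower. They were Cald1, Tpm1, Tpm2, Cnn2 and Cnn3. With a block per line 8 of 8 genes were called between the lines grown alone and 7 of 8 in co-culture, but the background then was 58.6% and 58% of tested genes. With a block shared by the lines the counts were 7 and 7, against 52.9% and 52.1%.

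The other probe sets of a gene give a second reading of the same RNA, and 5 of the 31 lay under the floor on all arrays. The probe set with the highest mean over the arrays is not always that with the widest contrast. For Cald1 a further probe set, 1424769_s_at, averaged 13.44 in CT26 alone but 4.07 in RAW alone, under the floor, which gives an excess of at least 297-fold, and 1424768_at gave at least 150-fold. These bounds set the CT26 mean against the floor of the RAW arrays. The Cald1 probe set 1433147_at averaged 8.05 in CT26 alone and 5.26 in RAW alone, where 1 array lay under the floor, a difference of 2.79 log2 units. In contrast, 1433146_at, close to the floor in both lines, read 5.70 in CT26 alone with 5.50 in RAW alone (1.15-fold, adjusted p = 0.265), so the fold of Cald1 depends on the probe set. The 5 further Cnn3 probe sets all lay under the floor in RAW alone, with bounds from at least 9.1-fold to at least 267-fold. Tpm2 was 10.3-fold higher on its second probe set and at least 1.52-fold and 1.45-fold higher on the dim ones. For Tpm1 a second probe set gave 2.39-fold and the third, 1456623_at, 2.10-fold with adjusted p = 0.0968. Vim differed by 1.06-fold and 1.12-fold on its others and Tagln2 by 1.29-fold. The further 2 probe sets of Acta2 were under the floor on all arrays, and its bright one has a suffix, s_at, that marks probes matching several related transcripts. The Cald1 probe set with the bound of at least 297-fold has the same suffix, and the 5 further Cnn3 probe sets end in x_at. Whether other transcripts contribute to any of these readings was not tested.

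**Figure D2:**
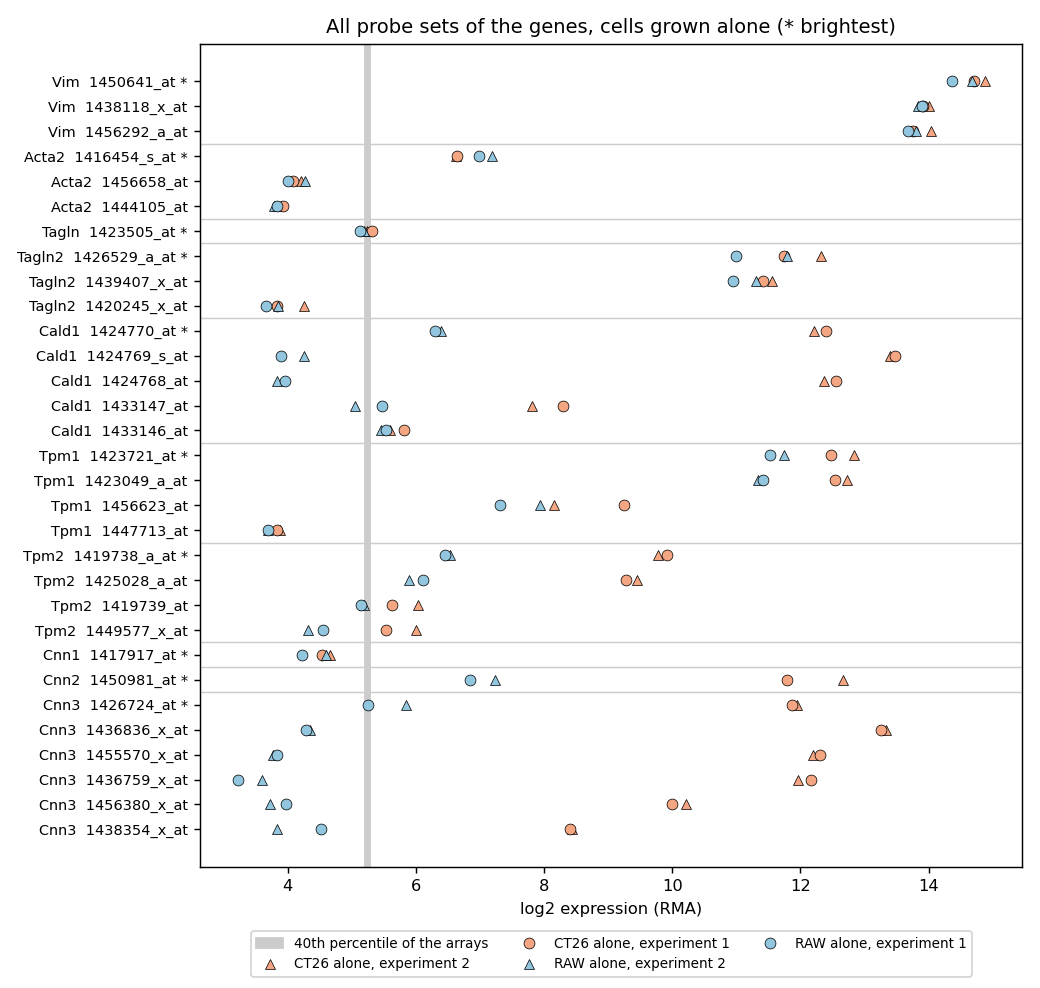
Log2 expression of all 31 probe sets in CT26 alone and RAW alone, 2 arrays each, with the 40th percentile of the arrays in grey. Triangles are experiment 2 and circles experiment 1. RAW arrays lie left of the grey band for 5 of 6 Cnn3 probe sets and for 2 of 5 Cald1 probe sets, while CT26 arrays lie far to the right of it.

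The second question was whether co-culture changed these genes in either line. In RAW cells Cnn2, Tpm1, Tpm2 and Vim read lower in co-culture in both experiments, by 0.24 to 0.57 log2 units on average. Cnn3 and Tagln2 read higher in both. None of the 8 genes was called, against 0.25% of all tested genes (33 genes by limma, and 694 at an unadjusted p below 0.05). The share of all tested genes that kept 1 sign in both experiments, or whose groups did not overlap, was not counted for any comparison. Such patterns are therefore not set against a background here. Cnn2 had the widest difference, with 6.65 and 6.29 in RAW co-culture, against 7.23 and 6.84 in RAW alone. Its groups did not overlap, and the difference was -0.57 ± 0.39 log2 units, a level of 0.675-fold (adjusted p = 1). The differences within experiments 2 and 1, at -0.59 and -0.55, were close, and with a block per line Cnn2 was called (adjusted p = 0.0166), as were 3.56% of all tested genes, 2.01% being lower. With a block shared by the lines it was not called (adjusted p = 0.239), against 1.11% of all tested genes. Cnn2 has a single probe set, so no second reading exists.

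Tpm1 had 11.51 and 11.05 in RAW co-culture, against 11.75 and 11.53 in RAW alone, without overlap, a difference of -0.36 ± 0.24 log2 units. Its further bright probe sets gave -0.38 and -0.32, the second of these from -0.71 in experiment 2 and 0.06 in experiment 1. Tpm2 had 6.37 and 6.13 in RAW co-culture, against 6.53 and 6.45 in RAW alone, also without overlap (-0.24 ± 0.13). Its second bright probe set, 1425028_a_at, went both ways, with 0.06 in experiment 2 and -0.42 in experiment 1, and the dim ones differed by 0.09 and 0.18. Vim had 14.46 and 14.06 in RAW co-culture, against 14.67 and 14.37 in RAW alone, and its groups overlapped. Its difference was -0.26 ± 0.18, and its further probe sets gave -0.28 and -0.28, each lower in both experiments. None of these differences passed with a block per line, at adjusted p = 0.111 for Tpm1, 0.168 for Vim and 0.229 for Tpm2. Cnn3 (0.23 ± 0.28), Tagln2 (0.08 ± 0.38), Cald1 (-0.07 ± 0.13) and Acta2 (-0.10 ± 0.12) did not pass in any fit. Within experiments 2 and 1 Cnn3 differed by 0.28 and 0.18, and Tagln2 by 0.07 and 0.10. Without RAW co-culture of experiment 2 the differences of Cnn3 and Tagln2 were -0.12 and -0.30, and without RAW alone of experiment 1 they were -0.07 and -0.32, but leaving out 1 array breaks the pairing and takes in part of the shift between experiments. The mean level of the 12 macrophage markers was 12.35 to 12.66 in RAW co-culture and 12.36 to 12.59 in RAW alone, ranges that overlap.

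In CT26 cells 0 of 8 genes were called, and 0% of all tested genes were (limma, with 107 at an unadjusted p below 0.05). A block per line also called 0 of 8 genes and 0% of all tested genes. Acta2 read 6.76 and 6.90 in CT26 co-culture, against 6.62 and 6.64 in CT26 alone, higher in both experiments and without overlap, by 0.20 ± 0.12 log2 units (adjusted p = 1, or 0.899 blocked per line). No further Acta2 probe set lay above the floor. The mean level of the macrophage markers was 5.90 to 5.91 in CT26 co-culture, with 5.93 to 5.94 in CT26 alone. Cald1 and Tagln2 were higher in both experiments by 0.14 ± 0.13 and 0.16 ± 0.38, and Cnn2 and Tpm2 were lower in both by 0.23 and 0.10 on average. Of the further Cald1 probe sets 1424769_s_at gave -0.05, while 1424768_at, 1433147_at and 1433146_at gave 0.12, 0.14 and 0.10. The value of 1433147_at came from 0.41 in experiment 2 and -0.14 in experiment 1. Cnn2 read 12.48 and 11.51 in CT26 co-culture, against 12.66 and 11.79 in CT26 alone, with groups that overlapped, and its difference was 0.25 without CT26 co-culture of experiment 1 and 0.20 without CT26 alone of experiment 2, which again takes in part of the shift. Vim differed by 0.00 ± 0.18, Tpm1 by -0.05 ± 0.24 (0.20 without CT26 co-culture of experiment 1) and Cnn3 by 0.06 ± 0.28.

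**Figure D3:**
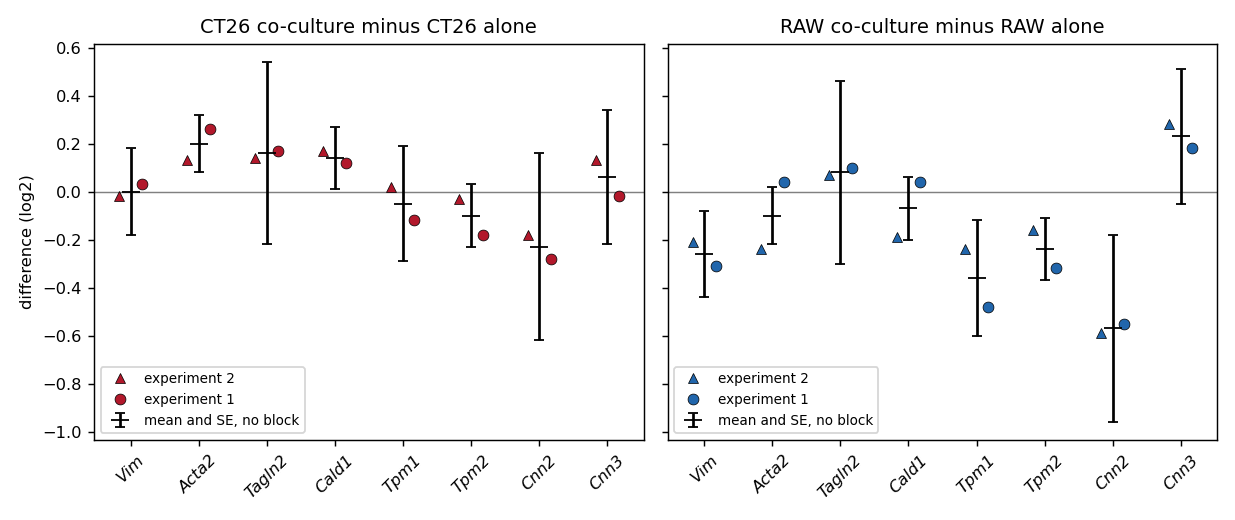
Difference of co-culture minus alone in log2 units for the 8 tested genes, CT26 on the left and RAW on the right. Coloured points are the difference within each experiment, black marks the mean with its standard error from the fit without a block. Points of RAW lie below 0 in both experiments for Vim, Tpm1, Tpm2 and Cnn2, and above 0 in both for Tagln2 and Cnn3.

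The difference between the co-culture effects, RAW minus CT26, was tested directly. None of the 8 genes was called, against 0.00758% of all tested genes (1 gene by limma, and 328 at an unadjusted p below 0.05). The differences were -0.33 ± 0.56 log2 units for Cnn2, -0.31 for Tpm1, -0.30 for Acta2 and -0.27 for Vim. A block per line left 0 of 8 called as well, against 0.743% of tested genes, with the smallest adjusted p among the 8 at 0.345, for Cnn2. The lower readings in RAW are thus not shown to differ from those in CT26.

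The third comparison set experiment 2 against experiment 1 within groups, since the whole experiment was carried out on 2 occasions. Each occasion occurred once, so the p-values here measure how evenly the groups shifted and not how much occasions vary. Tagln2, Cnn2, Cnn3, Tpm1 and Vim were higher in experiment 2, by 0.25 to 0.67 log2 units averaged over the 4 groups, while Acta2, Cald1 and Tpm2 were not called. That makes 5 of 8 genes called, all higher, against 28.1% of all tested genes, 16.8% higher and 11.3% lower. The shift was 0.67 ± 0.07 for Tagln2 (adjusted p = 0.00204), 0.65 ± 0.12 for Cnn2 (adjusted p = 0.00986) and 0.38 ± 0.07 for Tpm1 (adjusted p = 0.01). Cnn3 shifted by 0.40 ± 0.12 (adjusted p = 0.0429) and Vim by 0.25 ± 0.07 (adjusted p = 0.0421). The call of Vim was lost on leaving out any 1 of the 8 arrays, at 0.20 to 0.29 log2 units. That of Cnn3 was lost on leaving out any 1 of the 6 arrays other than those of CT26 alone, at 0.30 to 0.46.

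The calponins shifted by unlike amounts in the lines, a difference that did not pass its own test. Cnn2 was higher in experiment 2 by 0.38 ± 0.08 log2 units in RAW (adjusted p = 0.0152), against 0.92 ± 0.08 in CT26 (adjusted p = 0.00279). Cnn3 showed the opposite order, 0.65 ± 0.09 in RAW (adjusted p = 0.00327), where it is close to the floor, and 0.15 in CT26 (adjusted p = 0.284). The difference of the shifts, RAW minus CT26, a comparison added after seeing the data, was -0.54 ± 0.12 for Cnn2 (adjusted p = 0.0749) and 0.50 ± 0.13 for Cnn3 (adjusted p = 0.0999), which did not pass, against 2.04% of tested genes called. Tagln2 shifted by 0.55 ± 0.08 in CT26 and 0.78 ± 0.08 in RAW, and Tpm1 by 0.42 ± 0.10 and 0.34 ± 0.10 in the same lines, all of them called. Within CT26 3 of 8 genes were called, against 19.9% of tested genes, and within RAW 5 of 8, against 31%.

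Other probe sets did not carry the shift equally. For Tpm1 the probe set 1456623_at read 8.34 in CT26 co-culture and 8.16 in CT26 alone in experiment 2, against 9.19 and 9.24 in those groups in experiment 1, a shift of -0.96 where the brightest probe set shifted by 0.42. A second bright one shifted by 0.22 in CT26 and 0.09 in RAW. The second probe set of Tagln2 shifted by 0.17 in CT26 and 0.29 in RAW, and those of Vim by 0.04 and 0.21 in CT26 and -0.03 and 0.19 in RAW. For Cnn3 the further probe sets, which lay above the floor in CT26 and under it in RAW, shifted by -0.25 to 0.16 in CT26. Averaged over all probe sets of each gene, dim ones included, 2 of 8 genes were called between experiments.

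**Figure D4:**
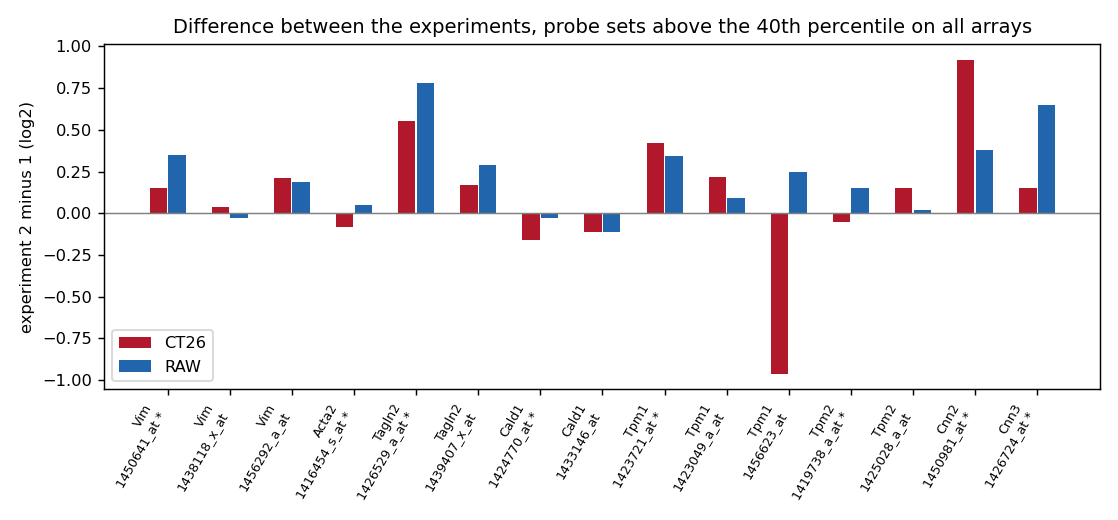
Difference of experiment 2 minus experiment 1 in log2 units, in CT26 and in RAW, for the probe sets of the genes that lie above the 40th percentile on all arrays. A star marks the brightest probe set of a gene. Bars of Tagln2, Cnn2 and the brightest Tpm1 probe set are above 0 in both lines, whereas the third Tpm1 probe set lies at -0.96 in CT26.

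The neighbouring genes of the cytoskeleton were read from 5 lists, which were also chosen with earlier results of these data known, so their counts are descriptions. Their counts stand beside 34.6% of all tested genes called between CT26 alone and RAW alone, 17.6% higher and 17% lower, with a median of 0.047 log2 units, and a count near these shares says nothing particular about a list. Of 10 tested actin and myosin genes, 3 were higher in CT26 alone than in RAW alone, 0 were lower and 7 were not called, with a median of 0.22 log2 units. Myh14, a non-muscle myosin heavy chain, was higher by 1.62 ± 0.16, Mylk, myosin light chain kinase, by 1.35 ± 0.26 and Myl12a, a regulatory light chain, by 0.83 ± 0.15. The cytoplasmic actins were alike in level, with Actb at 15.08 ± 0.02 in CT26 alone with 15.18 ± 0.06 in RAW alone (SD, n = 2), a difference of -0.10 (adjusted p = 0.525).

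Of 15 tested proteins that bind or crosslink actin filaments, 5 were higher and 2 lower in CT26 alone, with a median of 0.55. Cortactin (Cttn) was higher by 6.59 ± 0.16 log2 units, fascin (Fscn1) by 6.52 ± 0.47 and smoothelin (Smtn) by 2.80 ± 0.47. Lcp1, the plastin of leukocytes, was lower by 8.63 on this scale, at 5.01 ± 0.13 in CT26 alone but 13.64 ± 0.22 in RAW alone, and the tropomyosin gene Tpm3 differed by -0.43 ± 0.12 (adjusted p = 0.031). Tpm3 therefore stood opposite to Tpm1 and Tpm2. Of 12 tested focal adhesion and LIM proteins, 5 were higher and 1 lower, with a median of 0.98. The highest were Parva, parvin alpha (5.73 ± 0.33), Csrp2, a LIM protein (4.75 ± 0.18), and Tgfb1i1, also called Hic-5 (2.38 ± 0.48), and the lower gene was Pxn, paxillin (-0.54 ± 0.11).

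Of 7 tested genes among SRF, its cofactors and early targets, 4 were higher in CT26 alone and 0 lower, with a median of 4.67. They were the targets Ccn2 (6.14 ± 0.35), Ankrd1 (4.98 ± 0.16), Ccn1 (4.72 ± 0.32) and Thbs1 (4.67 ± 0.21), of which Ccn1, Ccn2 and Ankrd1 are also known targets of YAP and TEAD. The factor itself, Srf, stood at 9.13 ± 0.16 in CT26 alone with 8.88 ± 0.01 in RAW alone (adjusted p = 0.178), and its cofactor Mrtfa differed by -0.06. Myocardin, Myocd, lay under the floor at 4.67 ± 0.05 in CT26 alone with 4.60 ± 0.07 in RAW alone. Of 14 tested other intermediate filament genes and plakins, 4 were higher and 0 lower, with a median of 0.10. The keratin genes Krt20 and Krt18 were higher by 6.66 ± 0.15 and 5.18 ± 0.25, and Dst, a plakin, by 2.18 ± 0.27. In RAW alone Parva, Csrp2, Ccn2, Ankrd1, Thbs1, Krt18 and Krt20 had means under the floor, as did Lcp1 in CT26 alone. These genes passed the filter through the line where they are bright. Their direction was largely set by that, and the size of their differences is not well measured. The median of the SRF list is the value of Thbs1, which is among them, so it too is a reading against background. Smtn is also on the muscle list and the keratins on the epithelial one. Between co-cultured CT26 and RAW cells the counts higher and lower were 3 and 0, 6 and 2, 5 and 1, 4 and 0, and 4 and 0 in the 5 lists as ordered here. Of all tested genes 34.8% were called in that comparison, 17% higher and 17.7% lower. The rule named the same genes there, except that Thbs1 took the place of Ccn1, and each had the same sign. Lcp1 was not well above background in CT26 co-culture (mean 4.63), nor Fscn1 in RAW co-culture (mean 5.20), so the size of their differences there is not well measured either.

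**Figure D5:**
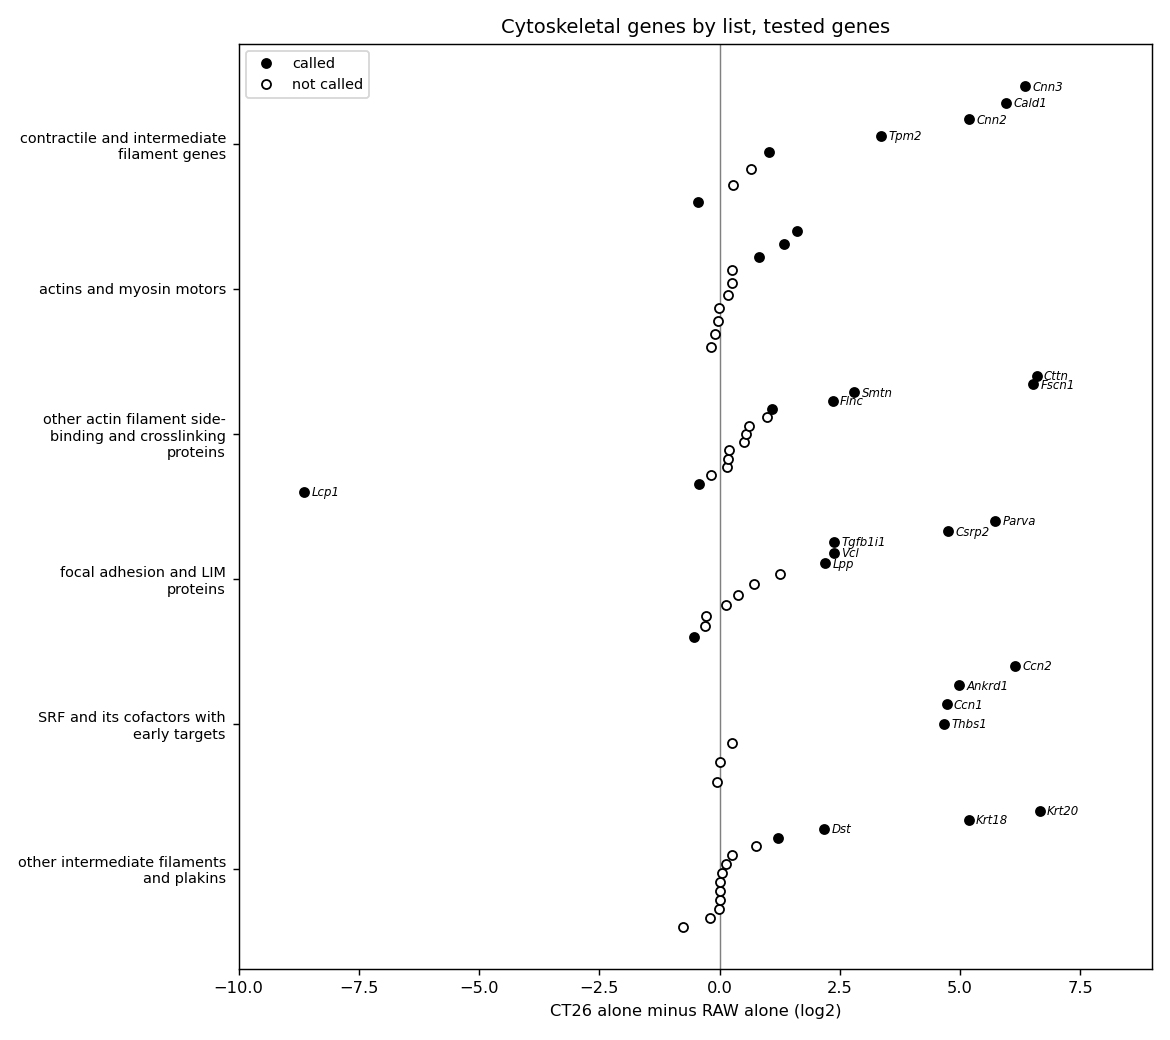
Difference of CT26 alone minus RAW alone in log2 units for the tested genes of the set and of 5 lists of cytoskeletal genes. Filled points are called at an adjusted p below 0.05 and open points are not, and genes beyond 2 log2 units either way are named. The targets listed with SRF and the calponins, Cald1 and Cttn lie between 4 and 7, Lcp1 lies below -8, and most actins and myosins lie near 0.

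In co-culture 0 genes of the 5 lists were called in either line without a block. The shares of all tested genes called were 0.25% in RAW and 0% in CT26, so these counts say nothing particular about the lists. In RAW the gene with the largest statistic was Dst, lower in co-culture by 0.94 on the log2 scale (adjusted p = 0.585), and Lima1, an actin-binding LIM protein, differed by -0.35 (adjusted p = 0.738). The largest statistics elsewhere in RAW were those of Myh9 (-0.30), Actg1 (0.15), Lcp1 (0.19), Pdlim5 (-0.17), Pxn (0.15), Thbs1 (-0.25), Srf (0.16) and Gfap (0.20), each at adjusted p = 1. In CT26 they were those of Mylk (-0.15), Acta1 (0.15), Lcp1 (-0.38), Tagln3 (0.08), Vcl (-0.29), Tes (0.20), Thbs1 (-0.11), Mrtfb (0.02), Krt18 (-0.20) and Prph (0.09), each at adjusted p = 1. For the difference of the effects, RAW minus CT26, the widest were Fscn1 (-1.32 ± 0.66) and Dst (-0.87 ± 0.39), and the others were Acta1 (-0.14), Actg1 (0.18), Lcp1 (0.57), Pdlim7 (-0.30), Vcl (0.42), Mrtfb (-0.08), Srf (0.20) and Gfap (0.26), each at adjusted p = 1. The share of all tested genes called there was 0.00758%. Lcp1 averaged 4.63 in CT26 co-culture and 5.01 in CT26 alone, under the floor, and Fscn1 averaged 5.20 in RAW co-culture, at the floor. The differences that rest on these readings are not well measured.

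Between experiments, where 28.1% of all tested genes were called, 16.8% higher and 11.3% lower, some genes of each list were called. The list medians, at 0.09 log2 units for the actins and myosins, 0.02 for the actin-binding list, 0.12 for the focal adhesion list, 0.16 for the SRF list and 0.03 for the other intermediate filaments, were under the 0.32 of the 8 genes of the set. Called higher in experiment 2 were 5 of 15 actin-binding genes, led by Smtn (0.83 ± 0.09 log2 units), Flna, filamin A (0.81 ± 0.07), and Actn4, an alpha-actinin (0.80 ± 0.06), with 0 lower. Of 12 focal adhesion genes 4 were higher and 2 lower, with Zyx, zyxin (1.16 ± 0.06), Tln1, talin (1.11 ± 0.11), and Pdlim7 (1.08 ± 0.08) at the top and Lpp (-0.52 ± 0.06) and Pdlim5 (-0.27 ± 0.08) lower. Of 7 genes of the SRF list 2 were higher, the cofactor Mrtfa by 1.07 ± 0.08 and Ccn2 by 0.53 ± 0.14, while Myh9, a non-muscle myosin heavy chain, was the 1 called gene of 10 actins and myosins (0.47 ± 0.08). Of 14 genes of the intermediate filament list 4 were higher, led by Plec, plectin (0.76 ± 0.09), and the lamins Lmna (0.71 ± 0.06) and Lmnb2 (0.67 ± 0.08), and Lmnb1 was lower (-0.62 ± 0.07). The median over all tested genes was 0.006.

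The genes with profiles most like those of Acta2, Tagln and Vim were sought by the root mean square difference of centred log2 values over the 8 arrays. For Acta2, which spanned 0.56 log2 units, they were Plxdc1 (0.055), Clca4a (0.06), Cit (0.061), Usp49 (0.071) and Nr2c1 (0.077). For Vim, which spanned 0.82, they were Zscan21 (0.055), Dhx57 (0.062), Snx24 (0.066), Ssc5d (0.069) and Slc35e3 (0.077). For Tagln, which spanned 0.30 at the floor, they were Nr4a3 (0.038), 4930555B11Rik (0.046), Hydin (0.047), Chit1 (0.047) and Hoxa3 (0.048). No gene of the set and no list member was among these 15, and with 8 arrays that share 2 experiments such likeness is a description only.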

How the data were processed

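Total RNA of 8 samples, 4 groups of 2, was labelled from 5 µg each and hybridised to single-colour arrays. The authors deposited log2 expression values, for which the submitters' processing notes name RMA and affy. No version or genome build was found in the sources used here. Of 45101 probe sets, 64 controls were left out. The platform annotation gave 1 symbol to 34945, several to 932, and did not list 9160. Entrez identifiers of 34741 matched RefSeq of GRCm38.p6, which changed 0 symbols and gave the promoters. RMA compresses low signals, which understates folds near the floor, and precision is limited by having 8 arrays.

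Each gene was represented by the probe set, among those with a single symbol, that was brightest on average, and was tested if above the 40th percentile in both arrays of at least 1 group. With limma 3.58.1 (R 4.3.3), the 4 group means were fitted over the 8 arrays without a block (4 residual degrees of freedom), and 1 term for the experiment gave the difference between experiments. Tests were two-sided, adjusted by Benjamini-Hochberg over 13196 genes, with a threshold of 0.05. The script was tested on simulated data. No pair of arrays held identical values.

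The labels number the 2 occasions of the experiment. Across genes, arrays of the same occasion deviated together from their group means (r = 0.754 between CT26 groups, 0.765 between RAW groups, and 0.484 to 0.561 across lines), so the numbers pair the samples. P-values of the comparisons between groups measure the spread between samples of 2 experiments. Those of experiment 2 against experiment 1 measure how evenly the groups shifted. Each occasion occurred once, so they do not measure the spread between occasions. Without a block the shift between experiments enters that spread. For Tagln2 in CT26 co-culture against CT26 alone the SE was 0.38 without a block and 0.08 with a block per line. Blocked fits had 3 (shared) or 2 (per line) residual degrees of freedom. Further alternatives were cyclic loess, averaged or other probe sets, other filters, a variance trend and arrays left out.

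The members and the lists were chosen with earlier results of these data known. The rule for named genes took all 10 members. For each list and comparison it took up to 3 called genes with the largest differences in each direction, or, with none called, the gene with the largest statistic in each direction. It also took the 5 most alike profiles for Acta2, Tagln and Vim, and 5 markers. Figures were drawn with matplotlib 3.10.9.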

Additional observations from a re-analysis of the deposited data

How the results depend on the processing

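The counts of genes called between the lines and for co-culture in CT26 kept within 1.5 times under all alternatives run, with 4 to 8 genes for CT26 alone against RAW alone, 5 to 7 in co-culture and 0 for CT26 co-culture against CT26 alone. Leaving out 1 array gave 4 to 6, 5 to 6 and 0 of these. The paired fit with a replicate block per line called 1 gene, Cnn2, for RAW co-culture against RAW alone, whereas the fits without a block and with a shared block called 0. The calls that a block changed between the lines, of Vim and Tagln2, stand with those genes, and it changed no other call of the 8 genes. Between experiments 5 genes were called, but 2 when the probe sets of each gene were averaged, 3 for the shift within CT26, and 3 to 4 on leaving out 1 array (3 without any co-culture or RAW alone array, 4 without either CT26 alone array). The shift between experiments reversed for Cnn3 to -0.01 with averaged probe sets, and to -0.05, -0.12 and -0.37 on the probe sets 1436836_x_at, 1455570_x_at and 1438354_x_at, and for Tpm1 to -0.36 on 1456623_at. The values of Cnn3 on these probe sets and averaged take in RAW readings under the floor, so they are not measured reversals. In CT26, where they are above it, these 3 probe sets shifted by 0.08, -0.08 and -0.25. The cause for Tpm1 was not tested. Leaving out 1 array breaks the pairing by experiment, so such values take in part of the shift. For co-culture in CT26, Cnn2 read 0.25 without CT26 co-culture of experiment 1 and 0.20 without CT26 alone of experiment 2, and in RAW its difference ranged from -0.77 to -0.37 on leaving out 1 array. Values under the floor (Cnn1, and most Cnn3 probe sets in RAW) have no measured order between groups, and Tagln, with 2 of 8 arrays above it, has hardly any signal to order.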

Other observations

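With a block per line, 2 of 14 tested genes of the intermediate filament and plakin list and 1 of 15 of the actin-binding list were called lower in RAW co-culture than in RAW alone, and 0 in the other 3 lists. Of all tested genes 3.56% were called in that fit, 2.01% lower. The 3 genes were chosen for naming after their values were seen. Dst, a plakin that links filament systems, averaged 6.73 in RAW co-culture and 7.67 in RAW alone, a difference of -0.94 ± 0.11 log2 units (SE, adjusted p = 0.00742), and it was also called with a block shared by the lines (adjusted p = 0.0232). Plec, plectin, which ties vimentin to other structures, averaged 11.81 in RAW co-culture and 12.39 in RAW alone (-0.59 ± 0.11, adjusted p = 0.0383). Fscn1, fascin, which bundles actin, averaged 5.20 in RAW co-culture and 6.49 in RAW alone (-1.29 ± 0.25, adjusted p = 0.046), from -0.67 in experiment 2 and -1.91 in experiment 1, and 5.20 lies at the floor. None of the 3 was called without a block.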
